A study of Mus musculus with 95 samples.

Results

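PCGF3 binding was examined in mouse embryonic stem cells that had lost other proteins of the same family. The members are the peaks called with an antibody to PCGF3 in 4 lines: wild-type E14 cells, Pcgf1-/-, Pcgf2/4-/- and Pcgf6-/-. Every peak that overlapped the list made with the same antibody in Pcgf3/5-/- cells was removed as background. This left 1257 peaks, 203 in wild-type, 365 in Pcgf1-/-, 96 in Pcgf2/4-/- and 593 in Pcgf6-/-, of 572830 peaks in the 40 peak lists read. The study compared ChIP-seq and RNA-seq of E14 cells with different Pcgf genotypes. Here ChIP-seq gave 1 peak list per antibody and line, and RNA-seq gave 2 libraries per line.

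E14 is a line of mouse embryonic stem cells. All lines were cultured without feeder cells in serum with LIF, a GSK3β inhibitor and a MEK1/2 inhibitor. The knockouts were made with Cas9 and isolated as clones, and lines with a pair of knockouts were made by editing a single-knockout clone again. PCGF4 is the product of Bmi1, so Pcgf2/4-/- cells lack PCGF2 and BMI1, and Pcgf3/5-/- cells lack PCGF3 and PCGF5. The count table carries 1 clone name per genotype, so a difference between lines cannot be told apart from a difference between clones. With 1 peak list per line, differences in binding between lines have no replicate check and no test. Intervals on shares of peaks are 95% Wilson intervals and cover counting error only. The sequencing depth of the ChIP libraries is unknown, so a site without a called peak may still be bound.

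Polycomb repressive complex 1 places ubiquitin on histone H2A through RING1A or RING1B, and each of its variants is built around 1 of the PCGF proteins. PCGF3 and PCGF5 form related complexes, PCGF2 and BMI1 form the canonical complexes with CBX proteins, PCGF1 pairs with KDM2B, and PCGF6 works with MGA, MAX and E2F6 at germline genes. USF1 is a basic helix-loop-helix leucine zipper factor that binds the palindromic E-box CACGTG, and MAX dimers read the same hexamer. USF1 peaks and PCGF3 peaks were both available here, so the E-box could be examined from each side.

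The E-box is what PCGF3 peaks of wild-type, Pcgf2/4-/- and Pcgf6-/- cells shared, so windows of 30 bases around it are shown first. The 5 printed are among the 8 promoters of highest wild-type fold enrichment in the regions called in all 4 lines, and they include the 3 highest and 2 lysosome genes (NCBIM37, plus strand, E-box in capitals).
Clcn6, chr4:147412953-147412982: ccccgggagggtCACGTGgccctctcgagc
Amdhd2, chr17:24300706-24300735: gccaggtcgcatCACGTGactctcagctga
Zmym6, chr4:126754579-126754608: tctgggtaacctCACGTGacaggaccgtcc
Hexa, chr9:59387476-59387505: ctgaccggggctCACGTGggctcagcctgc
Lamp1, chr8:13159134-13159163: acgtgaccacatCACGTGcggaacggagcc

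Of 9 promoters of the germline list at which a peak was called in Pcgf6-/- cells alone, 5 held the E-box and Ddx4, Mael, Smc1b and Sycp1 did not. Windows of 4 of the 5 are shown.
Dazl, chr17:50432418-50432447: gcccaggccgtgCACGTGgcccaccccggg
Mov10l1, chr15:88813166-88813195: tccatgctccttCACGTGctaaccgccaac
Mei1, chr15:81900463-81900492: ctcgcgctcctcCACGTGcgctcggagcgc
Tdrd1, chr19:56900676-56900705: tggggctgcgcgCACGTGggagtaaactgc

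Windows of 60 bases from regions called in Pcgf1-/- cells alone held runs of alternating C and A instead. CACACACA or its reverse complement is in capitals, and each window lies between genes, nearest to the gene named.
Ndufa8, chr2:35875204-35875263: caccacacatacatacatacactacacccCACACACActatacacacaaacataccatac
Slc29a4, chr5:143174506-143174565: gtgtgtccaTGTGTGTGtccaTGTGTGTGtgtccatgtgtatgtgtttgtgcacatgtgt

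The targeted genes were read first in the RNA-seq counts. Total counts ran from 2764111 to 7848161 per library over the lines compared. Pcgf1 had 66.1 and 61.0 CPM (counts scaled to the TMM-adjusted library total) in the wild-type libraries and 4.81 and 3.20 in Pcgf1-/- (log2 fold change of -3.90 with an SE of 0.22; adjusted p = 4.22e-07 by the quasi-likelihood test of edgeR, adjusted over all genes by Benjamini and Hochberg). Pcgf6 had 36.2 and 34.3 CPM in wild-type and no count in either Pcgf6-/- library. Pcgf5 had 13.0 and 10.8 CPM in wild-type and 5.48 and 4.60 in Pcgf3/5-/- (log2 fold change -1.22, SE 0.26, edgeR adjusted p = 0.00731). Counts over a whole gene do not check a deletion of a few exons. Pcgf2 had 41.0 and 54.8 CPM in Pcgf2/4-/- against 42.9 and 48.9 in wild-type, Bmi1 had 12.1 and 14.1 against 16.1 and 14.2, and Pcgf3 had 11.4 and 12.8 in Pcgf3/5-/- against 16.4 and 15.5.

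Transcripts of the bound protein and its closest relative were followed across the lines. Pcgf3 had 16.5 and 13.0 CPM in Pcgf1-/-, 12.1 and 20.2 in Pcgf2/4-/- and 19.5 and 18.2 in Pcgf6-/-, and it passed the edgeR test in none of these comparisons (adjusted p = 0.904, 0.838 and 0.533). The gene for its relative PCGF5 moved with genotype. Pcgf5 rose in Pcgf6-/- to 40.3 and 44.3 CPM (log2 fold change 1.83, SE 0.23, edgeR adjusted p = 3.94e-05). It fell in Pcgf1-/- to 5.36 and 4.12 CPM (log2 fold change -1.28, edgeR adjusted p = 0.00335). In Pcgf2/4-/- it fell to 3.77 and 5.88 CPM (log2 fold change -1.18, edgeR adjusted p = 0.0113). Both calls were lost when only the groups compared were fitted. Pcgf5 was not a target in these 2 lines, so the like fall in Pcgf3/5-/- does not check the knockout. Usf1 stayed between 109 and 170 CPM over all libraries of wild-type, Pcgf1-/-, Pcgf2/4-/-, Pcgf3/5-/- and Pcgf6-/-, and it passed the test in none of the 4 comparisons. Usf2 had 10.1 and 9.50 CPM in Pcgf6-/- against 15.1 and 18.3 in wild-type, a fall by 0.77 on the log2 scale (SE 0.24; adjusted p = 0.0198 with edgeR). That call was lost with DESeq2 (adjusted p = 0.0553), without wild-type replicate 2 and without either Pcgf6-/- replicate.

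The background list held 21 peaks in cells without PCGF3 and PCGF5. Of these, 11 lay within chrX:166407687-166437461, in and beside Mid1, a ubiquitin ligase gene that spans the pseudoautosomal boundary. The other 10 lay elsewhere in the genome. USF1 peaks of wild-type cells overlapped 9 of those 10, and the wild-type PCGF3 list held the same number of them. At Atp6v0b, a proton pump gene, fold enrichment was 13.2 in Pcgf3/5-/- and 32.5 in wild-type, where it ranked 2 of all peaks. Removal therefore took out 7 of the 25 wild-type peaks of highest fold enrichment, among them those at Dync1h1, Cdk4, Mfsd1, Spns1 and Zbtb40. Fold enrichments are the authors' values, and each was read against the other peaks of its own list.

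The PCGF3 lists differed in size between lines. The lists as deposited held 223 peaks in wild-type, 387 in Pcgf1-/-, 117 in Pcgf2/4-/- and 612 in Pcgf6-/-, and removal took 20, 22, 21 and 19 of them. In Pcgf6-/- cells, 180 of 203 wild-type peaks were found again (88.7%, 83.6 to 92.3%). Pcgf2/4-/- cells kept 84 (41.4%, 34.8 to 48.3%) and Pcgf1-/- cells 42 (20.7%, 15.7 to 26.8%). Read from the other side, 82 of 96 Pcgf2/4-/- peaks overlapped a wild-type peak (85.4%, 77 to 91.1%). The same held for 180 of 593 Pcgf6-/- peaks (30.4%, 26.8 to 34.2%) and for 41 of 365 Pcgf1-/- peaks (11.2%, 8.39 to 14.9%). The lists differ in length. With 96 peaks taken from each list by fold enrichment, 74% of wild-type peaks were found in Pcgf6-/- and 55.2% in Pcgf2/4-/-.

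PCGF3 lists of lines with all PCGF genes intact were set beside these overlaps. The line labelled shCtr had 33 peaks after removal, and 32 of them overlapped a wild-type peak. Seen from wild-type, this was 15.8% of its peaks (11.4 to 21.4%). The line labelled Ring1a-/-_Ring1bfl, which lacks Ring1a and carries a conditional Ring1b allele, had 110 peaks, of which 65 overlapped a wild-type peak, or 32% of the wild-type list (26 to 38.7%). The Ring1a-/-_Ring1bfl share of wild-type peaks was lower than that of Pcgf2/4-/-. The shCtr share is bounded by its list of 33 peaks, so it cannot be ranked against the knockout lines. As shares of their own lists, 97% of shCtr peaks and 59.1% of Ring1a-/-_Ring1bfl peaks overlapped a wild-type peak. The same shares were 85.4% in Pcgf2/4-/-, 30.4% in Pcgf6-/- and 11.2% in Pcgf1-/-.

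Merged over the 4 lines, the peaks made 926 regions. A peak was called in 1 line at 713 regions, in 2 at 123, in 3 at 65 and in all 4 at 25. Regions called in Pcgf6-/- alone numbered 391 and those called in Pcgf1-/- alone 306. Wild-type alone had 13, led by Frmd4b with a fold enrichment of 9.61, Cyth3 with 8.19, 5830415F09Rik with 7.63, and Ralb and Srsf3 with 7.24 each. Pcgf2/4-/- alone had 3, nearest to Cdk8 (3.29), Axin2 (2.17) and Pgk2 (1.6). All 3 also overlapped a peak of the PCGF2 antibody in this line, which lacks PCGF2, as did 20 of all 96 Pcgf2/4-/- peaks. Among the remaining combinations, wild-type with Pcgf6-/- was the most frequent with 93 regions, followed by wild-type with Pcgf2/4-/- and Pcgf6-/- with 50. Of 201 wild-type regions, 188 were called in at least 1 of the knockout lists.

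**Figure D1:**
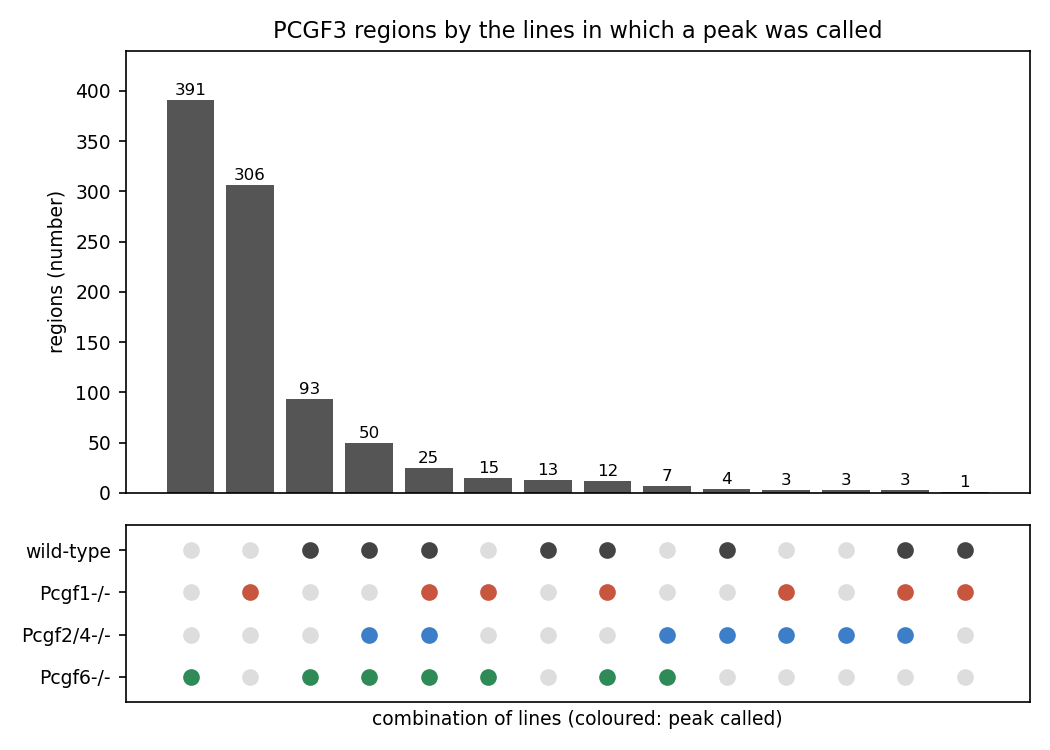
Number of merged PCGF3 regions (vertical axis) for each combination of lines in which a peak was called, with coloured dots below each bar marking those lines. The 391 regions of Pcgf6-/- alone and the 306 of Pcgf1-/- alone make up most of the 926, and 25 were called in all 4 lines.

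Of the 25 regions called in all 4 lines, most lay at promoters. A summit within 2.5 kb of an annotated transcript start, coding or not, is the promoter rule used for all shares of peaks. It was met by 22 of them, and the summits nearest to Slc30a6, Kcng2 and Mypn lay in introns farther away. All 25 overlapped a USF1 peak and 23 held CACGTG within 100 bases of the summit. Clcn6, which encodes a chloride transporter of late endosomes, had its summit at -44 bases from its start, with fold enrichments of 24.3 in wild-type, 11.2 in Pcgf1-/-, 8.56 in Pcgf2/4-/- and 28.7 in Pcgf6-/-. Hexa, the alpha subunit of beta-hexosaminidase, had 19, 12.7, 15.6 and 17.6 in the same order, at a summit 16 bases into its 5′ UTR.

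Other shared promoters belonged to genes of varied function. Lamp1, a glycoprotein of the lysosomal membrane, had fold enrichments of 18.7 in wild-type, 11.5 in Pcgf1-/-, 9.92 in Pcgf2/4-/- and 15.7 in Pcgf6-/-. Ctsa, a lysosomal carboxypeptidase, had 18.2, 12, 17.4 and 23.7 at a summit that also lies within 2.5 kb of the start of Neurl2. Nagpa, an enzyme that finishes the mannose 6-phosphate tag of lysosomal hydrolases, had 19.8, 7.87, 15.1 and 23.2. Atp6v1h, a subunit of the proton pump, Vps33a, a subunit of vesicle tethering complexes, Hps1 and Scamp3 were also in the group. Amdhd2, an enzyme of amino sugar metabolism, had 23.7 in wild-type and the highest fold enrichment of the list in Pcgf1-/- (25.3) and in Pcgf2/4-/- (19.5). The group also held Sgol1, which protects centromeric cohesion, Dvl2 of the Wnt pathway, Hoxa7, Stag3 and the zinc finger gene Zmym6. Among the highest peaks outside the group, Igf2r, the mannose 6-phosphate receptor, and 1810031K17Rik had 24.3 each in wild-type, and Gtf3c6, a subunit of a transcription factor for RNA polymerase III, had 16.8 in Pcgf1-/-. The region at Mid1 lies within the stretch of the X chromosome that holds 11 of the 21 background peaks, between removed peaks, and was kept because it overlapped none of them. Over the 25 regions fold enrichment ran from 5.15 to 24.3 in wild-type, 5.2 to 25.3 in Pcgf1-/-, 5.28 to 19.5 in Pcgf2/4-/- and 6 to 28.7 in Pcgf6-/-.

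**Figure D2:**
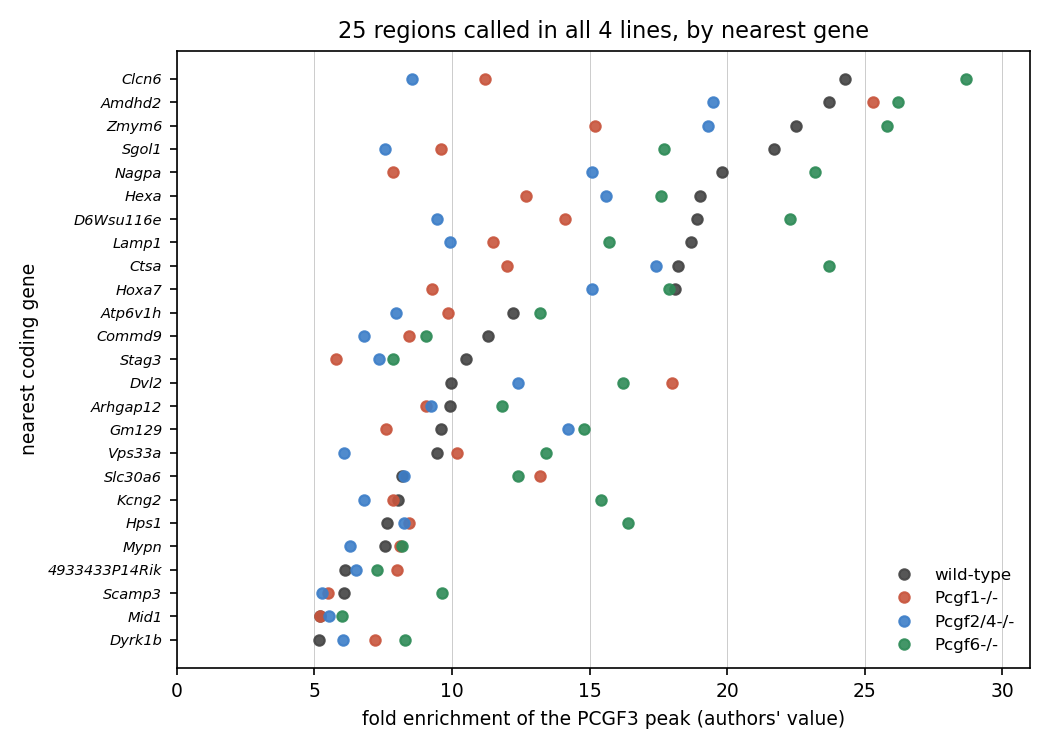
Fold enrichment of the PCGF3 peak as given by the authors (horizontal axis) at the 25 regions called in all 4 lines, ordered by the wild-type value and labelled by the nearest coding gene, with 1 dot per line. Clcn6 stands at 24.3 in wild-type and 28.7 in Pcgf6-/-, and Mid1 is at 5.2 in wild-type.

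Most peaks of wild-type, Pcgf2/4-/- and Pcgf6-/- cells lay at promoters and USF1 peaks, and most of those of Pcgf1-/- cells did not. Promoters held 82.8% of wild-type peaks (77 to 87.3%), 80.2% of Pcgf2/4-/- peaks (71.1 to 86.9%), 76.6% of Pcgf6-/- peaks (73 to 79.8%) and 19.5% of Pcgf1-/- peaks (15.7 to 23.8%). A wild-type USF1 peak overlapped 92.6% of wild-type peaks (88.2 to 95.5%), 88.5% in Pcgf2/4-/- (80.6 to 93.5%), 81.5% in Pcgf6-/- (78.1 to 84.4%) and 15.3% in Pcgf1-/- (12 to 19.4%). By comparison, USF1 overlapped 5.71% of wild-type PCGF1 peaks, 7.69% of PCGF2 peaks, 22.7% of PCGF6 peaks and 11.4% of H3K4me3 peaks. The intervals of Pcgf1-/- do not meet those of the other lines, and the interval of wild-type meets that of Pcgf2/4-/- in each measure. The USF1 interval of wild-type lies above that of Pcgf6-/-.

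The E-box followed the USF1 share. CACGTG, searched on both strands within 100 bases of the summit, was present in 83.3% of wild-type peaks (77.5 to 87.8%), 81.2% of Pcgf2/4-/- peaks (72.3 to 87.8%), 75.2% of Pcgf6-/- peaks (71.6 to 78.5%) and 20% of Pcgf1-/- peaks (16.2 to 24.4%). The same window held it at 4.94% of 69976 annotated coding starts, at 1.97% of 255558 windows spaced every 10 kb over the genome and at 74.7% of all USF1 peaks. Where it was present, its median distance from the summit was 20.5 bases in wild-type, 15.5 in Pcgf2/4-/- and 14.5 in Pcgf6-/-. More than 1 E-box lay in the window of 85 of 169 wild-type peaks and 137 of 446 Pcgf6-/- peaks. The eight-base form TCACGTGA, which contains the E-box, was searched in the same way and was in 42.4% of wild-type peaks, 39.6% in Pcgf2/4-/-, 26.3% in Pcgf6-/- and 6.58% in Pcgf1-/-, against 0.763% of coding starts.

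**Figure D3:**
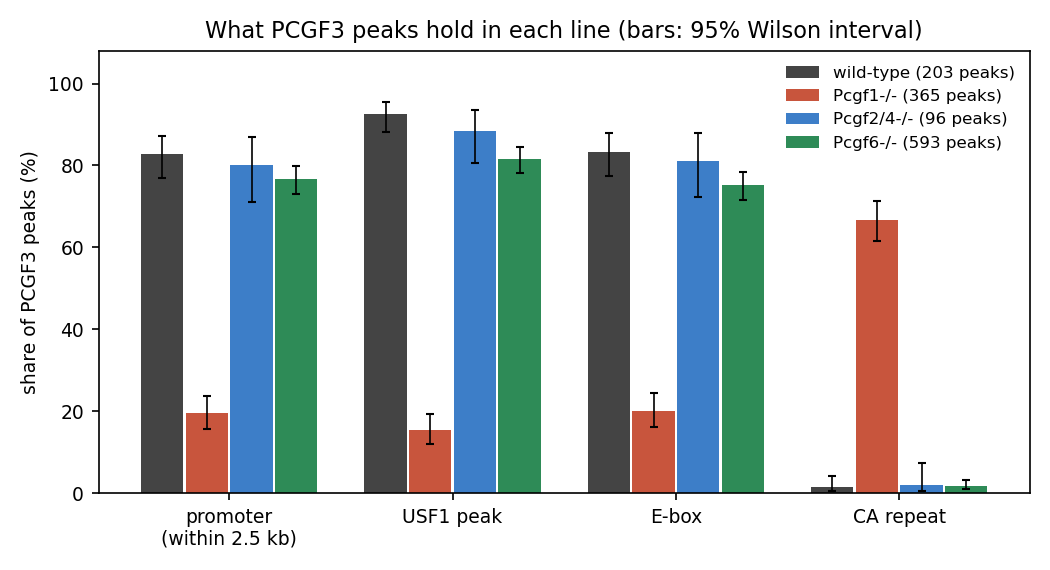
Share of PCGF3 peaks (vertical axis, percent) that lie at a promoter, overlap a wild-type USF1 peak, hold the E-box CACGTG or hold CACACACA within 100 bases of the summit, by line, with 95% Wilson intervals. Wild-type, Pcgf2/4-/- and Pcgf6-/- bars stand between 75.2% and 92.6% for the first 3 measures, and Pcgf1-/- stands at or below 20% there and at 66.6% for the repeat.

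PCGF3 was found at the USF1 peaks of highest fold enrichment. The 9641 wild-type USF1 peaks outside the background were ranked by their own fold enrichment and divided into 10 groups of 964 or 965. In the highest group, with fold enrichments of 25.6 to 89.4, PCGF3 was called at 18% in wild-type (15.8 to 20.6%), 4.88% in Pcgf1-/-, 8.09% in Pcgf2/4-/- and 42.7% in Pcgf6-/- (39.7 to 45.9%). In the next group the shares were 0.311%, 0.415%, 0.104% and 3.53%. USF1 was mapped in wild-type cells, so its occupancy in the knockout lines was not used here. Over regions that overlapped a USF1 peak, the median USF1 fold enrichment was 62.6 for the 25 called in all 4 lines. It was 60.1 for 48 of the 50 shared by wild-type, Pcgf2/4-/- and Pcgf6-/-, and 49.5 for 89 of the 93 shared by wild-type and Pcgf6-/-. For 298 of the 391 regions of Pcgf6-/- alone it was 41.1, against 8.55 over all USF1 peaks.

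**Figure D4:**
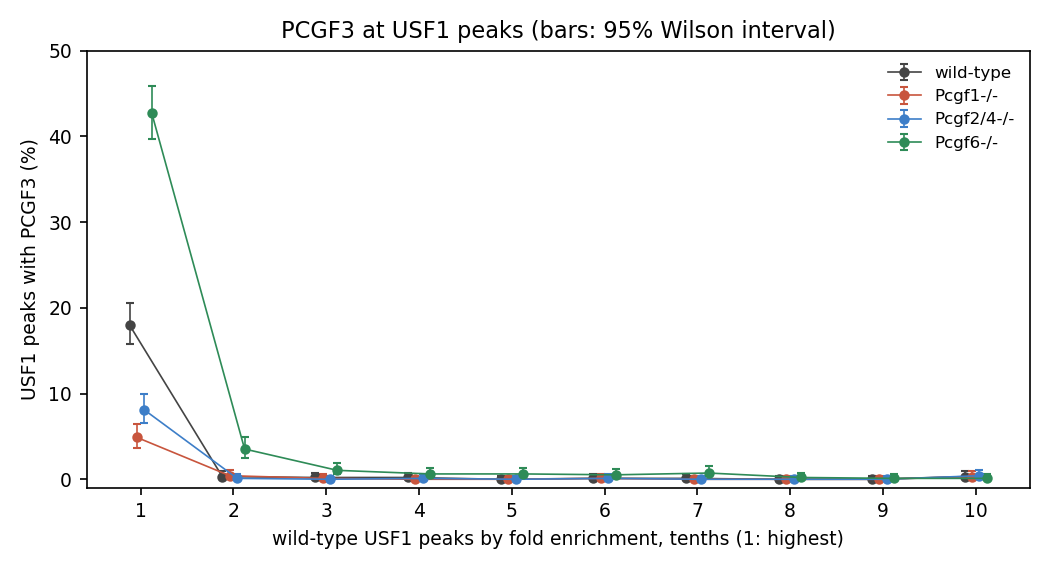
Share of wild-type USF1 peaks at which PCGF3 was called (vertical axis, percent) for 10 groups of the USF1 list ordered by fold enrichment (horizontal axis, 1 is the highest), by line, with 95% Wilson intervals. Pcgf6-/- reaches 42.7% and wild-type 18% in the highest group, and in the next group every line is at or below 3.53%.

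Most regions called in Pcgf6-/- cells alone lay at promoters, and most held the E-box, each counted separately. Of 391, promoters held 287 (73.4%, 68.8 to 77.5%), USF1 298 (76.2%, 71.8 to 80.2%) and CACGTG 274 (70.1%, 65.4 to 74.4%). H3K4me3, a mark of active and poised starts, overlapped 344 in the same line (88%, 84.4 to 90.8%). These peaks were the lower ones of their list: Pcgf6-/- peaks that overlapped a wild-type peak had a median fold enrichment of 10.1, and the 413 that did not had 6.18, with a highest value of 13.2. The highest lay at Tasp1, a protease gene, with 13.2, then at Cpm, a membrane carboxypeptidase gene, with 12.9, and at Eif4e, the cap-binding translation factor, with 11.9. A further peak stood at 4933434E20Rik with 11.7 and another between genes, nearest to Arglu1, with 11.6.

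Peaks of the PCGF6 antibody in wild-type cells were examined for PCGF3. Only the background of the PCGF3 antibody was removed from them. The PCGF6 antibody also gave peaks in Pcgf6-/- cells, so not every peak need show PCGF6. Among 1855 wild-type PCGF6 peaks outside the background, PCGF3 was called at 64 in wild-type (3.45%, 2.71 to 4.38%), 7 in Pcgf1-/-, 35 in Pcgf2/4-/- and 150 in Pcgf6-/- (8.09%, 6.93 to 9.42%). For PCGF6 peaks that also carried a USF1 peak of the highest of these groups, the counts were 41 of 111 in wild-type (36.9%, 28.5 to 46.2%) and 76 of 111 in Pcgf6-/- (68.5%, 59.3 to 76.4%). At the 1440 PCGF6 peaks without USF1, PCGF3 was called at 12 in wild-type (0.833%, 0.477 to 1.45%) and 48 in Pcgf6-/- (3.33%, 2.52 to 4.39%). Seen from PCGF3, wild-type PCGF6 overlapped 96 of the 391 regions of Pcgf6-/- alone (24.6%, 20.5 to 29.1%) and 26 of the 93 regions shared by wild-type and Pcgf6-/- (28%, 19.9 to 37.8%). The intervals of these shares overlap.

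Promoters of germline genes, known targets of PCGF6, held more PCGF3 calls in the Pcgf6-/- list than in the others. Of a list of 20 germline genes, a promoter peak was called at 4 in wild-type, 1 in Pcgf1-/-, 3 in Pcgf2/4-/- and 14 in Pcgf6-/-, against 0.854%, 0.247%, 0.4% and 2.21% of 22238 coding genes. The list was chosen with its expression in these lines known, so it is not independent evidence. All 14 promoters carried a wild-type PCGF6 peak, 6 carried USF1 and 8 held CACGTG. The 10 germline promoters beyond those of wild-type included Dazl, an RNA-binding protein of germ cells, with a fold enrichment of 7.62, and Mov10l1, a helicase of the piRNA pathway, with 8.34. Sycp1, a synaptonemal complex protein, had 9.93 with neither USF1 nor CACGTG. Ddx4, the germ cell helicase also named Vasa, had 5.6 and Mael, a piRNA factor, 6.03, likewise without either. Hormad1, a meiotic chromosome axis protein, had 11.1 in Pcgf6-/- and 8.31 in wild-type, and Stag3, a meiotic cohesin, was called in all 4 lines.

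Expression of these germline genes in Pcgf6-/- cells was part of what the list was chosen on, so it is given as a description. Of 15464 genes tested in Pcgf6-/-, 24.2% rose and 14.4% fell. Of the 14 with a PCGF3 peak there, 13 rose and 1 fell, with a median log2 fold change of 3.56, and 19 of the 20 in the list rose. Slc25a31, an ADP/ATP carrier of testis, had 3.85 and 4.78 CPM in wild-type and 180 and 196 in Pcgf6-/- (log2 fold change 5.44, SE 0.24, edgeR adjusted p = 1.44e-08). Sycp1 had 2.28 and 2.11 CPM in wild-type and 76.8 and 78.0 in Pcgf6-/- (edgeR adjusted p = 2.62e-07). Tdrkh, a Tudor protein of the piRNA pathway, had 7.13 and 3.24 CPM in wild-type and 137 and 148 in Pcgf6-/- (edgeR adjusted p = 1.05e-08). No Pcgf6-/- library overlapped a wild-type library at these 3 genes. Stag3 fell to 67.6 and 57.3 CPM from 87.3 and 83.3 (log2 fold change -0.45, SE 0.15, edgeR adjusted p = 0.0335), a call that DESeq2 did not make. In Pcgf3/5-/- cells, where 7.81% of all genes rose and 6.14% fell, the same 14 genes had 5 that rose and 4 that fell, with a median log2 fold change of 0.08.

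**Figure D5:**
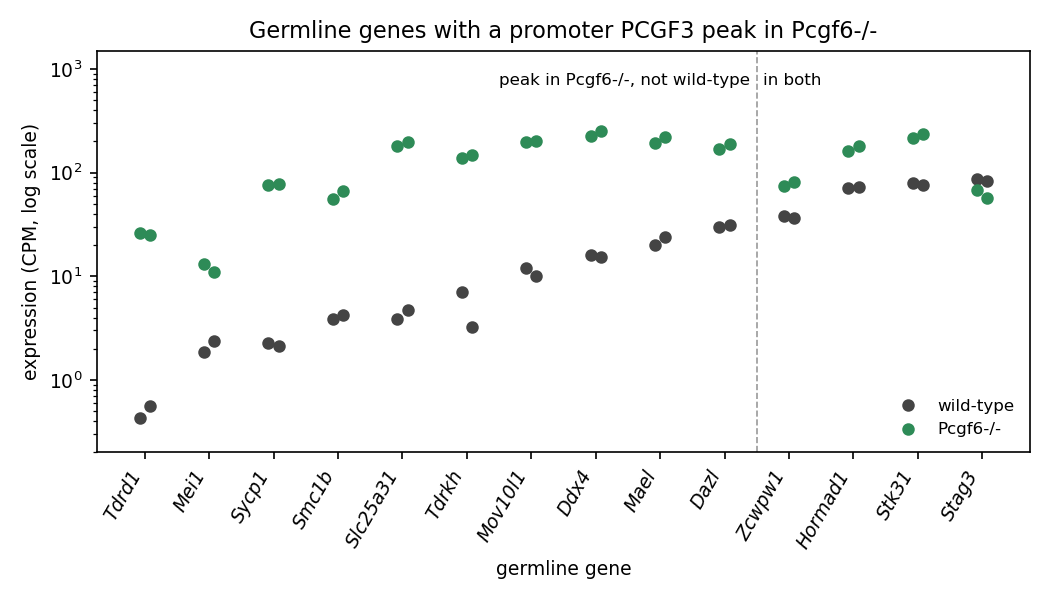
Expression of the 14 germline genes with a promoter PCGF3 peak in Pcgf6-/- cells (vertical axis, CPM, log scale), with 1 dot per library for wild-type and Pcgf6-/-. Genes left of the dashed line had no wild-type peak, and Pcgf6-/- dots lie above wild-type dots for every gene except Stag3.

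Some lysosome genes carried PCGF3 in each of the 4 lines. From a list of 20, a promoter peak was called at 9 in wild-type, 4 in Pcgf1-/-, 6 in Pcgf2/4-/- and 11 in Pcgf6-/-, against 0.854%, 0.247%, 0.4% and 2.21% of all coding genes. This list too was chosen with earlier results of these data known, so it is not independent evidence. All of these promoter peaks overlapped USF1. The 4 of Pcgf1-/- were Lamp1, Ctsa, Hexa and Atp6v1h, and each of them was also called in the other 3 lines. Ctsd, the protease cathepsin D, was called in wild-type, Pcgf2/4-/- and Pcgf6-/-. Gla and Mcoln1 were called in wild-type and Pcgf6-/-, and Tpp1 and Atp6v0d1 in Pcgf6-/- alone. Of the 11 with a peak in Pcgf6-/-, none rose there and 5 fell, against 24.2% and 14.4% of all genes tested, with a median log2 fold change of -0.23. Hexa fell from 223 and 231 CPM to 121 and 122 (log2 fold change -0.90, SE 0.27, edgeR adjusted p = 0.0177). Tpp1 fell by 1.30 on the log2 scale (SE 0.14, edgeR adjusted p = 9.24e-06). Over the list of 20, 7 fell in Pcgf6-/- with the main scaling and 4 with RLE factors. In Pcgf3/5-/- cells, where 7.81% of all genes rose and 6.14% fell, none of the same 11 genes rose. There 1 fell, Gla, and the median log2 fold change was 0.09.

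Clock genes and the genes of the complex itself were read from lists. Of 12 annotated clock genes, Tef had a promoter peak in wild-type, and Tef, Cry1 and Bhlhe41 in Pcgf6-/-, each with USF1. Tef, a transcription factor with circadian expression, fell in Pcgf6-/- (log2 fold change -3.54, SE 0.48, edgeR adjusted p = 6.65e-05), and Cry1, a repressor of the clock, rose (log2 fold change 0.41, SE 0.13, edgeR adjusted p = 0.0236). Gm129, a repressor of CLOCK and BMAL1 that RefSeq names Ciart, had a peak in all 4 lines. None of 13 genes of the PCGF3 and PCGF5 complex and none of 13 annotated E-box factors had a promoter peak in any of the 4 lines. With peaks at 0.247% to 2.21% of all coding genes, lists of this length would hold few or none, so nothing is read from these counts.

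The 306 regions called in Pcgf1-/- cells alone differed from all other groups. Promoters held 31 (10.1%, 7.23 to 14%), USF1 10 (3.27%, 1.78 to 5.91%) and CACGTG 33 (10.8%, 7.78 to 14.8%), and the median distance to a coding start was 26635 bases, against 177 for regions of Pcgf6-/- alone. CACACACA on either strand lay within 100 bases of the summit of 239 (78.1%, 73.1 to 82.4%), against 2.3% of regions of Pcgf6-/- alone, 6.16% of windows over the genome and 2.67% of coding starts. This pattern was noticed in the data and then counted. CACATG, the E-box with 1 base changed, shares bases with such repeats and was in 69.3% of these regions and in 15.6% of windows over the genome. Few other lists of that line met them: H3K4me3 overlapped 11 of 306, PCGF6 3, RING1B 2 and PCGF2 1. The highest fold enrichments were 12.3 near 4930403N07Rik, 12.1 in an intron of another gene model, nearest to the start of Pitpnb, 11.2 near Zbtb37, 10.9 near Chek2, a DNA damage kinase gene, and 10.8 near Dnttip2. Among these, the region near Chek2 was the only one to hold the repeat. The one nearest to Pitpnb held CACGTG and overlapped a USF1 peak with a fold enrichment of 30.1.

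Without peaks that hold the repeat, 122 Pcgf1-/- peaks remained. USF1 then overlapped 43.4% (35 to 52.3%) and promoters held 39.3% (31.1 to 48.2%), below the wild-type values of 93% and 83% counted in the same way. Of Pcgf1-/- peaks of −log10 q at least 10, which number 56, USF1 overlapped 53.6% and promoters held 55.4%.

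H3K4me3, which marks starts, met most PCGF3 peaks in every line but Pcgf1-/-. It overlapped 84.7% of wild-type peaks (79.1 to 89%) and 88.7% of Pcgf6-/- peaks in its own line (85.9 to 91%). RING1B, the ubiquitin ligase of the complex, overlapped 18.7% in wild-type (14 to 24.6%), 31.2% in Pcgf2/4-/- (22.9 to 41.1%), 11.5% in Pcgf6-/- (9.15 to 14.3%) and 3.29% in Pcgf1-/-. H2AK119ub1, its product, overlapped 2.96%, 24%, 6.24% and 2.47% in that order, from lists that covered 1.12, 83.3, 4.53 and 6.73 Mb. H3K27me3, the mark of the second Polycomb complex, overlapped 6.9%, 16.7%, 6.07% and 1.64%, with 6.33, 81.6, 8.25 and 19.9 Mb covered. PCGF6 overlapped 30.5% of wild-type peaks from a list of 1868, 80.2% of Pcgf2/4-/- peaks from a list of 12842 and 11.5% of Pcgf1-/- peaks from a list of 5528. In Pcgf1-/-, it met 22 of the 25 regions called in all 4 lines, and in wild-type it met 5. In Pcgf6-/- cells, which lack PCGF6, the same antibody still gave a list of 1042 peaks. That list overlapped 7.93% of Pcgf6-/- PCGF3 peaks and 7 of the 25 regions, so these overlaps do not by themselves show PCGF6. List length moves with these shares, and its part was not tested.

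Expression of genes with a PCGF3 peak at the start was compared with that of all genes. The wild-type RNA libraries differed by less than the sampling noise (chi-square per degree of freedom 0.944 over 13204 genes, against 1.19 to 22.8 in the other pairs), so they were summed and counted as 1 sample. P-values therefore rest on the spread between knockout libraries. In Pcgf6-/-, 24.2% of 15464 genes tested rose and 14.4% fell. Of 566 genes with a start within 2.5 kb of a Pcgf6-/- peak, 455 were tested, and 72 rose (15.8%) and 82 fell (18%), with a median log2 fold change of -0.09. Without Pcgf6-/- replicate 2, 62 rose and 40 fell, and with DESeq2 68 rose and 64 fell, so neither direction led in every fit. Of the 566, the count table held 475. Of the 201 genes bound in both lines 18 rose and 42 fell. Of the 365 bound in Pcgf6-/- and not in wild-type 54 rose and 40 fell. Both totals include genes that were not tested, counted as neither. Shares of these totals therefore cannot be set beside the 24.2% and 14.4%, which are of genes tested. Primitive endoderm markers summed to 42.0 to 47.3 CPM in Pcgf6-/- (6 of 6 detected) and 1.13 to 1.85 CPM in wild-type (1 of 6). Neural markers summed to 16.5 to 20.5 CPM in Pcgf6-/- against 4.08 to 6.42. Fibroblast or feeder markers summed to 24.1 to 28.4 CPM against 7.45 to 10.6. Trophoblast markers were lower, with 82.6 to 89.8 CPM against 114 to 121. The part of these markers was not tested. Markers of embryonic stem cells, 8 of 8 detected in each line, summed to 1740 to 3470 CPM.

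Among bound genes called in Pcgf6-/- with a mean log2 CPM of at least 2, the 5 largest changes were increases, and genes of lower expression that are not named here changed by more in either direction. After Slc25a31, Sycp1 and Tdrkh came 0610040J01Rik with 6.28 and 6.33 CPM in wild-type and 123 and 121 in Pcgf6-/- (log2 fold change 4.27, SE 0.29, edgeR adjusted p = 2.58e-07), and Mov10l1 with 10.1 to 12 CPM in wild-type and 198 and 204 in Pcgf6-/- (log2 fold change 4.18, SE 0.21, edgeR adjusted p = 2.58e-08). A PCGF3 peak was called at 0610040J01Rik in wild-type as well, with a fold enrichment of 6.48, and in Pcgf6-/- with 6.19. Its expression moved the other way in Pcgf3/5-/-, to 3.48 and 1.34 CPM (log2 fold change -1.29, SE 0.37, edgeR adjusted p = 0.0337), a call lost without Pcgf3/5-/- replicate 2 or without either wild-type library.

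Genes bound in wild-type were read in Pcgf3/5-/- cells, where PCGF3 is lost. There 7.81% of all genes rose and 6.14% fell, and of 174 bound genes tested 8 rose (4.60%) and 13 fell (7.47%), with a median log2 fold change of -0.04. Without Pcgf3/5-/- replicate 1 the bound genes called were 10, and without replicate 2 they were 8. Slc36a1, an amino acid transporter of the lysosome, rose from 3.42 and 2.81 CPM to 13.2 and 10.5 (log2 fold change 1.94, SE 0.30, edgeR adjusted p = 0.000947). Its peak, with the summit at -14 bases from the start, had fold enrichments of 11.7 in wild-type, 8.57 in Pcgf2/4-/- and 16.9 in Pcgf6-/-. H1f0, a linker histone, rose from 14.4 and 15.5 CPM to 41.3 and 37.2 (log2 fold change 1.40, SE 0.26, edgeR adjusted p = 0.00321). Neurl2 and Ccdc9 fell by 1.41 and 1.37 on the log2 scale (edgeR adjusted p = 0.0234 and 0.0268). Each call was lost without Pcgf3/5-/- replicate 1 and without replicate 2.

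Few bound genes were called in Pcgf2/4-/- in the main fit, which does not show that the others were unchanged. The 2 libraries of this line differed more than any other pair (chi-square per degree of freedom 22.8), with total counts of 2764111 and 7547984. Here 5.19% of all genes rose and 9.50% fell, and of 80 bound genes tested 5 rose (6.25%) and 1 fell (1.25%). Without Pcgf2/4-/- replicate 1, 10 rose and 2 fell, and without replicate 2, 13 rose and 11 fell. Hoxa7, a developmental regulator with a peak in all 4 lines, rose from 11.6 and 10.5 CPM to 29.3 and 34.6 (log2 fold change 1.55, SE 0.29, edgeR adjusted p = 0.00377). Slc36a1 rose to 10.1 and 8.31 CPM (log2 fold change 1.5, SE 0.31, edgeR adjusted p = 0.00686). Dolk, the dolichol kinase, rose from 70.1 and 70.9 CPM to 111 and 125 (log2 fold change 0.75, SE 0.14, edgeR adjusted p = 0.0033). Fam178b and Zmym6 rose by 0.61 and 0.51 (edgeR adjusted p = 0.0196 and 0.0359). Of these genes, Slc36a1, Dolk, Fam178b and Zmym6 lost the call when only the groups compared were fitted.

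In Pcgf1-/-, 9.84% of all genes rose and 13.0% fell. Of 50 bound genes tested 4 rose (8.00%) and 10 fell (20.0%), and with RLE factors 7 rose and 9 fell. Tec, a tyrosine kinase gene with a promoter peak in Pcgf1-/- (fold enrichment 6.14) and Pcgf6-/- (4.29), rose from 4.57 and 2.95 CPM to 23.5 and 17.1 (log2 fold change 2.46, SE 0.30, edgeR adjusted p = 0.000112). Pde9a, a phosphodiesterase of cyclic GMP, fell from 38.7 and 39.4 CPM to 14.3 and 11.4 (log2 fold change -1.57, SE 0.24, edgeR adjusted p = 0.000583), and its peak, called in Pcgf1-/- alone, held the repeat. Sfi1, a centrosomal protein gene, fell by 1.82 on the log2 scale (edgeR adjusted p = 6.40e-05), and Mid1 fell by 1.27 (edgeR adjusted p = 0.000207). Both lie in sequence with near copies, so their counts and peaks are uncertain. Gm129 rose from 47.4 and 49.5 CPM to 94.1 and 104 (log2 fold change 1.03, SE 0.15, edgeR adjusted p = 0.000459).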

How the data were processed

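The members and the gene lists were chosen with earlier results of these data known. Peaks are deposited MACS2 narrowPeak lists with a fold ratio and −log10 p and q values per peak. The submitters' processing notes name Bowtie 1.2.2, TopHat2 2.1.1, MACS2 2.1.1, HTSeq 0.7.2, DESeq2 3.7 and mm9, with no thresholds. Deposited counts are whole reads per gene. All chromosome names and peak ends fitted NCBIM37, and genes are from GENCODE M1. Overlap meant 1 bp or more. A promoter peak had its summit within 2.5 kb of an annotated transcript start, coding or not. Motifs were searched in 201 bases around the summit. edgeR 4.0.16 (TMM, filterByExpr, quasi-likelihood, Benjamini-Hochberg at 0.05) was fitted to all 14 libraries of 7 genotypes. The design treated the wild-type libraries as 2 samples. They were summed after the chi-square test, and the design as planned is an alternative. The script was tested on simulated data. Labels do not state separate cultures, so p-values may measure technical spread. Same-numbered libraries showed no pairing (correlations -0.02 to 0.06). Genes named in the expression comparisons are the 5 largest changes per comparison among bound genes called with a mean log2 CPM of at least 2. Named regions are those in all 4 lines, the 5 highest of a line alone and the 3 highest per line. Some genes of the lists are not reported here.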

Additional observations from a re-analysis of the deposited data

How the results depend on the processing

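Of 141 alternative values from the peak lists, 87 moved by less than counting error and 54 moved by more. Of 84 alternative counts of genes called, 67 lay within 1.5 times the main count. The cause of the shifts below was not tested unless the setting itself removes peaks or samples. Depth of the ChIP libraries is unknown, and 2 libraries per line limit the expression counts.

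With −log10 q of at least 10, peak counts were 107 in wild-type, 56 in Pcgf1-/-, 38 in Pcgf2/4-/- and 360 in Pcgf6-/-. Promoter shares were then 88.8% in wild-type, 55.4% in Pcgf1-/- and 92.1% in Pcgf2/4-/-, USF1 shares 96.3% in wild-type, 53.6% in Pcgf1-/- and 87.8% in Pcgf6-/-, and E-box shares 87.9%, 51.8% and 82.8% in the same lines. Of Pcgf1-/- peaks 32.1% and of Pcgf2/4-/- peaks 73.7% were found in wild-type, 26.2% of wild-type peaks were found in Pcgf2/4-/- and 92.5% in Pcgf6-/-, and 10 in all 3 knockout lists, against 25. With 96 peaks per list, promoter shares were 87.5% in wild-type, 39.6% in Pcgf1-/- and 85.4% in Pcgf6-/-, USF1 shares 97.9%, 37.5% and 95.8%, and E-box shares 93.8%, 43.8% and 94.8%. The overlap between wild-type and Pcgf2/4-/- was then 55.2% and with Pcgf6-/- 74% in both directions, 22.9% of Pcgf1-/- peaks were found in wild-type, and 15 wild-type peaks in all 3 lists. With no background removal, 26.9% of wild-type peaks were found in Pcgf1-/-, 15.5% of Pcgf1-/- peaks in wild-type and 43 wild-type peaks in all 3 lists. When lists of other antibodies without their target were also removed, USF1 shares were 98.7% in wild-type and 96.9% in Pcgf2/4-/-, E-box shares 90.9% and 93.8%, 8.07% of Pcgf1-/- peaks were found in wild-type, 92.9% of wild-type peaks in Pcgf6-/-, and 16 in all 3 lists. With the E-box within 50 bases, its shares were 67% in wild-type, 14.8% in Pcgf1-/-, 71.9% in Pcgf2/4-/- and 66.6% in Pcgf6-/-. With starts within 1 kb, promoters held 12.3% in Pcgf1-/- and 71.8% in Pcgf6-/-, and 5 bound genes were called in Pcgf1-/-. Without the repeat, a setting chosen after seeing the data, 122 Pcgf1-/- peaks remained, with promoters at 39.3%, USF1 at 43.4%, the E-box at 39.3% and 32% found in wild-type.

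When only the groups compared were fitted, 1652 genes were called in Pcgf1-/- (3526 in the main fit, 43.1% of them higher, and 51.2% here) and 531 in Pcgf2/4-/- (2272), and bound genes called were 7 in Pcgf1-/-, 1 in Pcgf2/4-/- and 263 in Pcgf6-/- (154). With wild-type as 2 samples, as planned, the choice to sum them having been made after seeing the data, 3333 genes and 34 bound genes were called in Pcgf3/5-/- (2156 and 21). The replicate block, with wild-type as 2 samples, gave 33 bound genes there and moved no other count by over 1.5 times. It called 4517 genes in Pcgf1-/-, 2952 in Pcgf2/4-/-, 2921 in Pcgf3/5-/- and 6866 in Pcgf6-/-. Leaving out 1 library at a time gave 2005 to 2993 genes in Pcgf1-/- and 1059 to 1716 in Pcgf3/5-/-. Bound genes called were 5 to 24 in Pcgf2/4-/-, 8 to 15 in Pcgf3/5-/- and 102 to 148 in Pcgf6-/-. A lone library was assumed to vary like the other groups. With RLE factors, 43.8% of bound genes called in Pcgf1-/- were higher, against 28.6%. Among 520 alternative values of named genes none was reversed, and 40 lost the call.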

Other observations

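The bases beside the E-box differed between groups of regions. Counting the E-box nearest the summit once per peak, TCACGTGA made up 39.6% of 169 wild-type peaks with an E-box and 25.5% of 274 regions of Pcgf6-/- alone, and CCACGTGA made up 25.4% and 42.7%. At Pcgf2/4-/- peaks the shares were 33.3% and 34.6%. The share of peaks with GGGCGG within 100 bases of the summit was 46.3% in wild-type and 48.6% in Pcgf6-/-, against 34.4% of coding starts.

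Regions called in Pcgf1-/- alone were unevenly spread over the chromosomes. Chromosome 5 held 49 of 306 (16%), and makes up 5.75% of the genome. Chromosome 17 held 25 (8.17%, against 3.59% of the genome).

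The mitochondrial genome held 6 wild-type peaks and 4 Pcgf2/4-/- peaks, and none in Pcgf1-/- or Pcgf6-/-. The PCGF3 list of the line labelled Ring1a-/-_Ring1bfl had USF1 at 72.7% of 110 peaks (63.7 to 80.2%) and the repeat CACACACA at 5.45% (2.52 to 11.4%).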
